A study of Mus musculus with 6 samples.

Results

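The genes described here are Tcstv1, Tcstv3, AF067061 and BC147527, 4 neighbours on mouse chromosome 13. Their probesets were taken by symbol. The genes themselves had been selected on their levels in these same arrays, so the difference between the groups is given as a description with no test. A probeset, a set of array probes summarised to 1 value, was listed for 3 of the 4 genes: 10598146 for Tcstv3, 10598152 for BC147527 and 10598207 for AF067061. Each of the 3 listed a single symbol, 0 probesets listed a member among several symbols, and Tcstv1 was listed for none. These are 3 of 19938 genes with a probeset of their own on the array.

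The arrays came from wild-type mouse embryonic stem (ES) cells with the 2C::tomato reporter, sorted by flow cytometry into 2C::tomato+ (positive) and 2C::tomato- (negative) cells, 3 samples of each. The reporter, as published, places the fluorescent protein under the long terminal repeat of a retroviral element active in the early embryo. The treatment protocol names vehicle or 4OHT (4-hydroxytamoxifen), the latter to delete Kdm1a, and the labels do not say which of them these samples received. Both groups share the titles' replicate numbers 1 to 3, and positive and negative arrays of 1 number are called a pair here. The labels do not state whether the replicates are separate cultures, and the spread that a p-value rests on may be technical.

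The mouse embryo transcribes a set of genes and retroviral elements at the 2-cell stage, when its own genome is first switched on, and a few cells of an ES culture enter a similar state for a time. The Tcstv genes take their name from a variable group of transcripts of that stage. In published work with mouse ES cells, raising Tcstv1 or Tcstv3 lengthened telomeres, as does Zscan4, another gene family of that state. No role is given here for AF067061 or BC147527.

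RefSeq windows of 250 bases before to 50 bases after a transcript start were listed for 2 of the members, AF067061 and BC147527. They are shown as the only member windows listed. Both genes were highest in the positive array of number 2, a rise by which the members had been chosen. The window of Gm21761, the gene after Tcstv1 in gene order, is shown beside them because it is a near copy of that of AF067061. The coordinates are those of RefSeq in build GRCm38.p6, and the files themselves hold none. AF067061 lies at chr13:120262845-120263144 on the plus strand, Gm21761 at chr13:119913419-119913718 on the minus strand and BC147527 at chr13:120300142-120300441 on the plus strand. Each is written 5′ to 3′ along its gene, and capitals mark a match to a motif searched, which here is the TATA form TATATAA.
AF067061: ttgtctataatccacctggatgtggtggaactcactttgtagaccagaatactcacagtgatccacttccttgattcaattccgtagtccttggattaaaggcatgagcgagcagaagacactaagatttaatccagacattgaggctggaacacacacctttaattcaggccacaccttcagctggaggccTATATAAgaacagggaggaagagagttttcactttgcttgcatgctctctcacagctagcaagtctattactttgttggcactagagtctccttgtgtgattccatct
Gm21761: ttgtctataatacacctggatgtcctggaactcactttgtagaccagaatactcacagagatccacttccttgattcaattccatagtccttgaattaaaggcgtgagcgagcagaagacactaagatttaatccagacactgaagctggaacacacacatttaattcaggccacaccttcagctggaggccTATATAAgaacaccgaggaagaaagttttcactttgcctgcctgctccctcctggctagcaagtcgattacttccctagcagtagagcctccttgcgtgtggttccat
BC147527: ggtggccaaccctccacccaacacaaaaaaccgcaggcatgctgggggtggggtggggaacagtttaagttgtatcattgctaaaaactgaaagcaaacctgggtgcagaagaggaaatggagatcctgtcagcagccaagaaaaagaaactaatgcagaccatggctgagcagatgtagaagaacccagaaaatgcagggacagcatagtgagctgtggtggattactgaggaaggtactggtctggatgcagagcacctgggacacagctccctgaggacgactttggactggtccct

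The windows of AF067061 and Gm21761 aligned over 298 bases with 271 identical (90.9%), and their longest shared run was 44 bases. Both held TATATAA on the sense strand, its first base 58 bases before the start. TATATAA occurred on either strand in 3.24% of the 32851 RefSeq windows of this length. A count of TATATAA or TATAAA near the start, on the sense strand, reached back only 40 bases. It found a match in 2.37% of windows, and the matches of AF067061 and Gm21761 lie outside that stretch. For AF067061 and BC147527 the best local alignment covered 73 bases, and the longest shared run was 9. BC147527 was closest to Gm36161, a long non-coding RNA gene of the same stretch, with 122 of 150 aligned bases identical (81.3%). It was nearly as close to Gm21188, a protein-coding gene of the stretch, with 117 of 145 (80.7%). The other motifs searched on both strands were TATAAA (13.6% of windows), CCAAT (37.4%), GGGCGG (35.7%) and the Zscan4 motif TGCACAC (4.40%). Matches of different motifs can share bases, as with both TATA forms in 1 run, and the 3 windows shown held no such case. None of these others matched in the 3 windows shown, and BC147527 held none of the 5 motifs, which says only that these letters are not in this window.

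BC147527 had the largest difference of the members. Its log2 level in negative arrays 1, 2 and 3 was 6.09, 5.01 and 5.68, and in positive arrays 1, 2 and 3 it was 7.22, 10.79 and 6.22. Positive array 2 stood far above the other arrays, and all 3 positive arrays were above all 3 negative ones. Positive arrays averaged 8.07 ± 2.41 (SD, n = 3), negative arrays 5.59 ± 0.54 (SD, n = 3), and the log2 difference was 2.48 (SE 1.13), or 5.59-fold. The pair differences on the log2 scale were 1.12, 5.78 and 0.54 in pairs 1, 2 and 3, which are 2.18-fold, 55.0-fold and 1.45-fold. In sorted cell pools such as these, more cells that express a gene and more RNA per cell cannot be told apart.

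Tcstv3 was at a log2 level of 4.95, 4.96 and 5.05 in negative arrays 1, 2 and 3 and at 5.51, 9.24 and 5.08 in positive arrays 1, 2 and 3. Its high level was that of positive array 2 alone, while positive array 1 was 0.45 and positive array 3 was 0.03 above the highest negative array. The log2 pair differences were 0.56, 4.29 and 0.03, which are 1.47-fold, 19.6-fold and 1.02-fold. Positive arrays averaged 6.61 ± 2.29 (SD, n = 3), negative arrays 4.99 ± 0.06 (SD, n = 3), and the log2 difference was 1.62 (SE 1.05), or 3.08-fold.

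AF067061 was at a log2 level of 5.49, 5.04 and 5.46 in negative arrays 1, 2 and 3 and at 5.98, 9.62 and 5.52 in positive arrays 1, 2 and 3. It followed the same order, with positive array 2 high, positive array 1 0.48 above the highest negative array and positive array 3 only 0.03 above it. Its log2 pair differences were 0.48, 4.58 and 0.06, which are 1.40-fold, 23.9-fold and 1.04-fold. Positive arrays averaged 7.04 ± 2.24 (SD, n = 3), negative arrays 5.33 ± 0.26 (SD, n = 3), and the log2 difference was 1.71 (SE 1.03), or 3.27-fold.

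**Figure D1:**
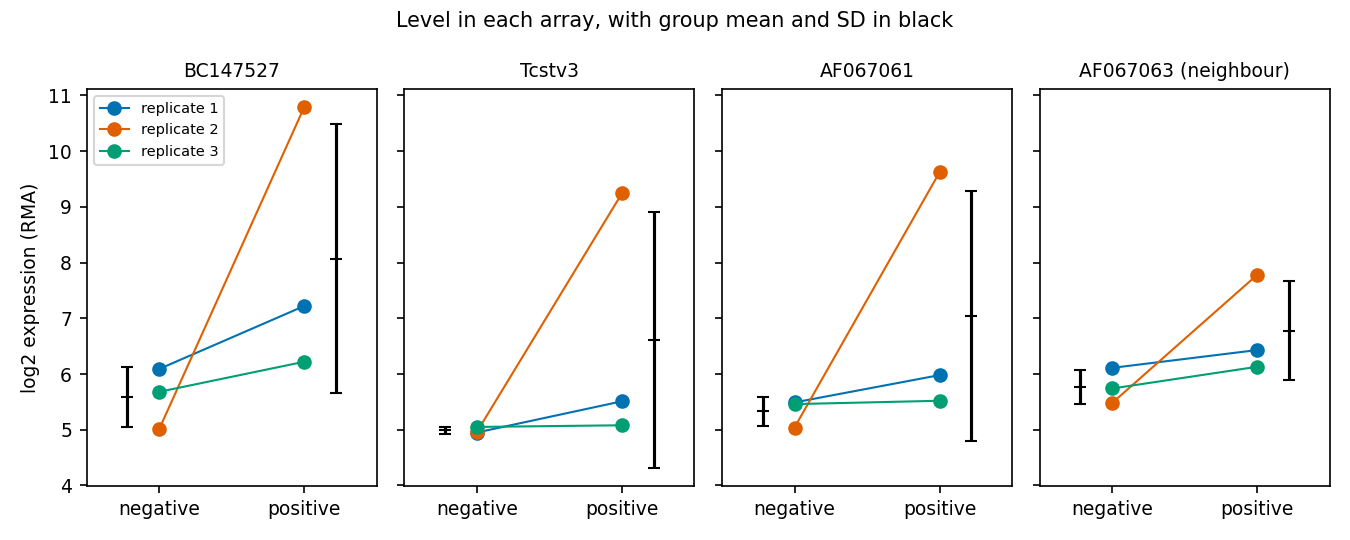
Log2 expression (vertical axis) of the 3 measured members and of the neighbour AF067063 in negative and positive arrays. Coloured points joined by a line are the arrays of 1 replicate number, and black marks are the group mean with its SD over 3 arrays. Positive array 2 is the highest of the 6 in each panel, at 10.79, 9.24, 9.62 and 7.78.

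In all 3 measured members the positive arrays had the order 2, 1, 3 from high to low. The mean log2 difference over the members was 1.94 over all arrays, made up of 0.72, 4.88 and 0.21 for pairs 1, 2 and 3. In pair 2 all 3 were at least 2-fold higher, in pair 1 BC147527 was the only one, and in pair 3 there was none. Without positive array 2 the mean difference was 0.62, with BC147527 at 1.12, AF067061 at 0.42 and Tcstv3 at 0.31. With both arrays of number 2 left out it was 0.47.

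Over all arrays 3 of 3 measured members were at least 2-fold higher, against 1.14% of the 35556 probesets of the array. Likewise 3 of 3 were higher without overlap between the groups, against 5.46% of all probesets. After a second quantile normalization Tcstv3 overlapped, and 2 were left. Since these differences chose the genes, nothing is read from those counts. Within a single pair, 2.03%, 2.38% and 2.01% of all probesets were at least 2-fold higher in pairs 1, 2 and 3.

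The members differed in how far positive arrays 1 and 3 shared in the rise. Taken on the linear scale above the mean of the negative arrays, the rise of positive array 1 was 5.70% of that of positive array 2 for BC147527, 3.02% for AF067061 and 2.38% for Tcstv3. In positive array 3 the same share was 1.38%, 0.719% and 0.368%. With 1 probeset per gene, 96 genes at least 2-fold higher, the members among them, had their highest positive level in array 2, with a median share of 9.20% for positive array 1 and 3.15% for positive array 3. Of these 96, 6 had a smaller share in positive array 1 than Tcstv3, 7 a smaller one than AF067061 and 26 a smaller one than BC147527. RMA, the authors' normalization, pulls dim values together, and most levels of the members were near the first quartile of an array, which lay between 5.29 and 5.44.

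Among genes at least 2-fold higher over all arrays, again with 1 probeset each, 28, the members among them, had a log2 difference from 4 to 6 in pair 2. Their median log2 difference was 1.51 in pair 1 and 0.52 in pair 3. In pair 1, 0 of the 28 lay below AF067061, 2 below Tcstv3 and 10 below BC147527. In pair 3, 2 lay below Tcstv3, 3 below AF067061 and 14 below BC147527. The 28 were taken by their change and not matched on level, and the part of the members' dim levels in these positions was not tested.

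**Figure D2:**
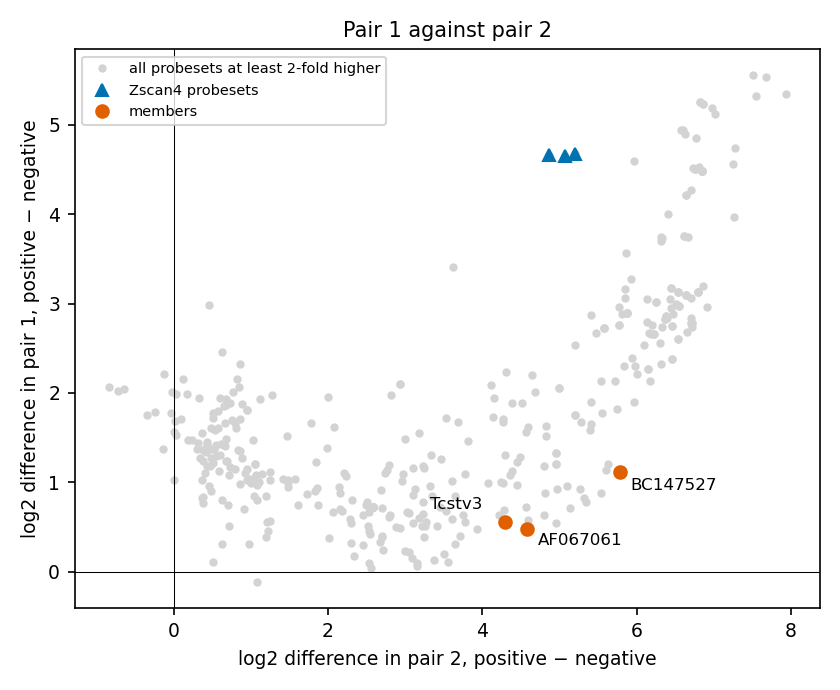
Log2 difference, positive minus negative, in pair 1 (vertical axis) against pair 2 (horizontal axis) for the 405 probesets at least 2-fold higher (grey), the 3 members (orange) and the 3 Zscan4 probesets (blue triangles). The members have pair 1 differences of 0.48 to 1.12 at pair 2 differences of 4.29 to 5.78, while the Zscan4 probesets have 4.65 to 4.68 at 4.86 to 5.20.

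Among the negative arrays, BC147527 and AF067061 were lowest in array 2, the partner of the array where they were highest. For BC147527, negative array 2 differed by -0.87 from the mean of the other negative arrays, for AF067061 by -0.44 and for Tcstv3 by -0.05. Among the 3196 probesets with a negative mean from 4.99 to 5.59, the range of the members, negative array 2 was the lowest of the 3 in 62.0%, with a median difference of -0.18 from the other negative arrays. The part of this lower dim end in the pair 2 differences was not tested. Against the highest negative array of any number, positive array 2 was higher by 4.70 for BC147527, 4.19 for Tcstv3 and 4.12 for AF067061.

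In RefSeq gene order 24 genes lie between the first and the last member, and 0 of them had a probeset of their own. Whether transcripts of Tcstv1, of Gm21761 or of the other genes between bind the members' probes was not tested, so the members' values are uncertain as those of single genes. With the 15 genes before Tcstv1 added, and 0 after Tcstv3, the last gene listed on the chromosome, there were 39 neighbours, of which 8 were measured. Of the 8, 4 were higher and 4 lower, with a median log2 difference of 0.02 against -0.026 over all probesets.

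No neighbour passed the test of positive against negative arrays. In limma, 0 of 8 had a Benjamini-Hochberg adjusted p under 0.05, with a lowest adjusted p of 0.875, and 1 of 8 had an unadjusted p under 0.05. Across the array limma called 0 of 35556 probesets, which is 0%, and 1946 had an unadjusted p under 0.05. With the replicate number as a block limma also called 0 (lowest adjusted p = 0.489), and 3584 probesets had an unadjusted p under 0.05.

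AF067063, a protein-coding gene 3 places before Tcstv1, was the 1 neighbour of 8 at least 2-fold apart. Its log2 levels were 6.11, 5.48 and 5.74 in negative arrays 1, 2 and 3 and 6.43, 7.78 and 6.13 in positive arrays 1, 2 and 3. Positive array 2 was again the highest, and positive array 3 was 0.03 above the highest negative array. The log2 difference was 1.01 (SE 0.43), with 0.32, 2.30 and 0.40 in pairs 1, 2 and 3, and the limma adjusted p was 0.875. The rise of positive array 1 was 18.6% of that of positive array 2 on the linear scale, a larger share than in any of the 3 members.

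The other 7 measured neighbours, all before AF067063 in gene order, had log2 differences from -0.44 to 0.30. None of the 8 was at least 2-fold lower, against 0.0169% of all probesets. Of the 8, 2 were higher and 2 lower without overlap between the groups, against 5.46% and 6.28% of all probesets. Tmem267, a membrane protein gene, had the 0.30 (SE 0.36), with pairs at 0.28, 0.71 and -0.09, and it was chosen after its values were seen.

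**Figure D3:**
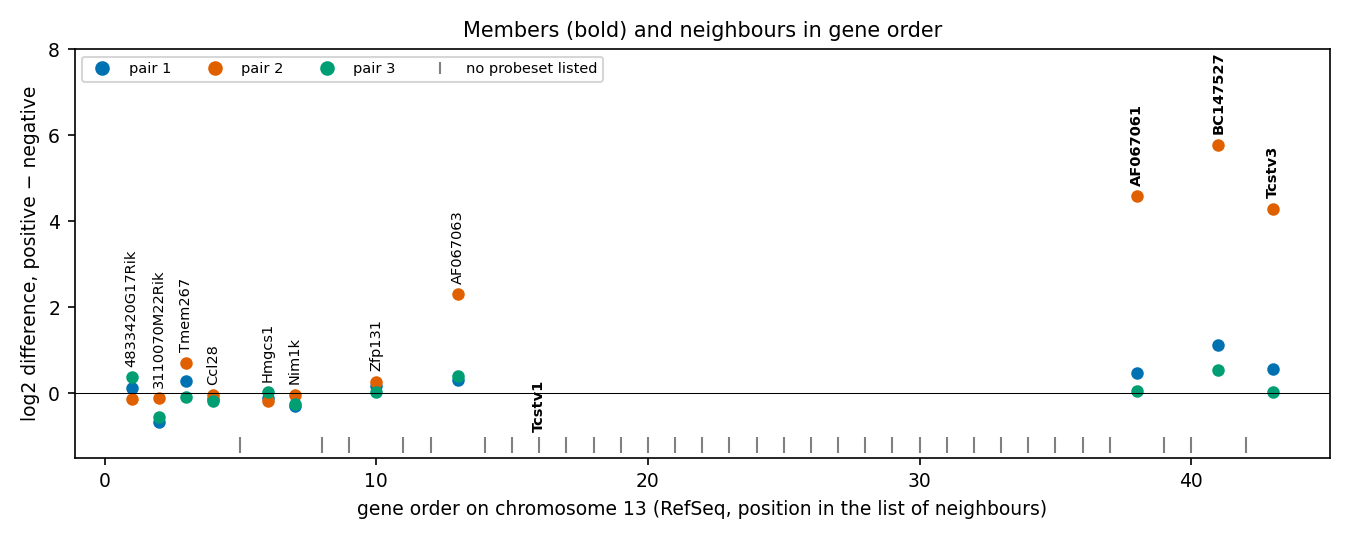
Log2 difference, positive minus negative, in each pair (vertical axis) for the genes of the stretch in RefSeq order on chromosome 13 (horizontal axis, position in the list). Bold names are members and grey ticks are genes with no probeset listed, Tcstv1 among them. The pair 2 points of AF067063, AF067061, BC147527 and Tcstv3 stand at 2.30, 4.58, 5.78 and 4.29.

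The genes of nearest profile were found as the 5 per member with the smallest Euclidean distance over the 6 arrays, after each gene was centred on the mean of its negative arrays. The measured members Tcstv3 and AF067061 lay 0.38 apart on this log2 scale, BC147527 and AF067061 1.47, and BC147527 and Tcstv3 1.72. For AF067061 the nearest genes outside the members were Chrm3, a muscarinic acetylcholine receptor gene, at 0.36, Gm9519 at 0.36, Gm5039 at 0.57, the defensin gene Defb25 at 0.66 and Spz1, a spermatogenic leucine zipper gene, at 0.68. Chrm3, Gm5039, Gm9519 and Spz1 were also among the 5 nearest to Tcstv3, with Chrm3 first at 0.40, and the fifth was Epm2a, which encodes the glycogen phosphatase laforin. BC147527 had another set: Usp17ld, of a deubiquitinase family, at 0.74, Pramel17 at 0.74, Gm11545 at 0.78, A530040E14Rik at 0.91 and Ubtfl1 at 0.99.

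Chrm3 stood at log2 levels of 6.15, 6.0 and 6.09 in negative arrays 1, 2 and 3 and at 6.83, 10.29 and 6.47 in positive arrays 1, 2 and 3. It was high in positive array 2 alone, as Tcstv3 and AF067061 were, with pair differences of 0.69, 4.29 and 0.39. Usp17ld was at 7.44, 6.75 and 7.01 in negative and at 9.26, 12.49 and 7.94 in positive arrays. Its pair differences were 1.82, 5.74 and 0.93, each beside 1.12, 5.78 and 0.54 in BC147527.

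**Figure D4:**
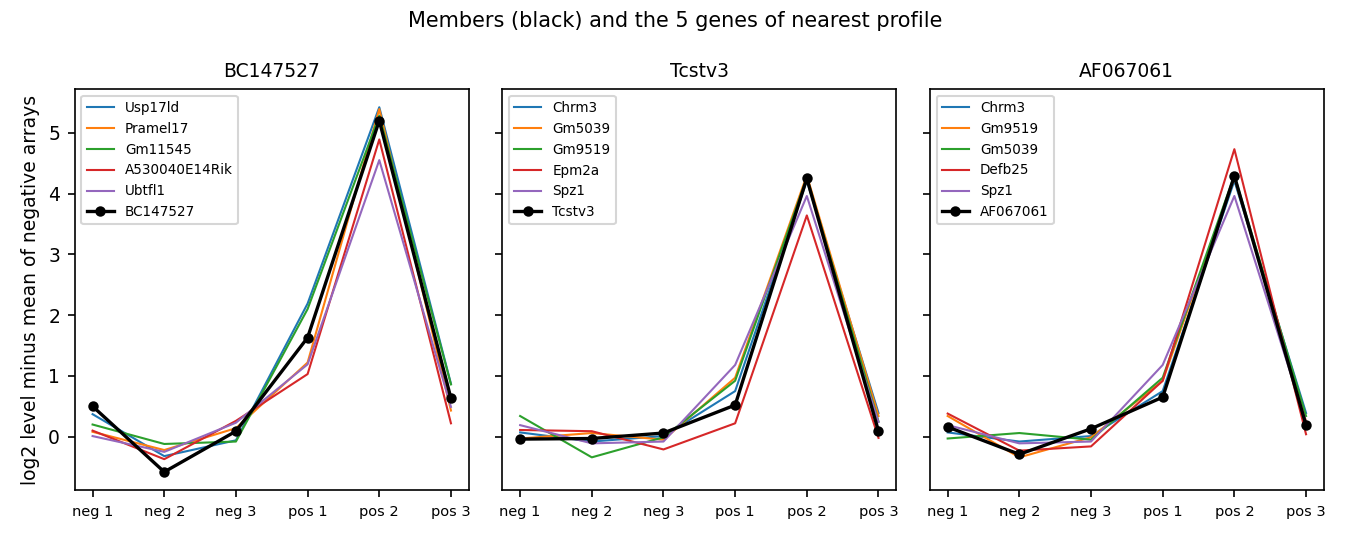
Log2 level minus the mean of the negative arrays (vertical axis) in the 6 arrays (horizontal axis) for each member in black and the 5 genes of nearest profile in colour, with lines only to join the points of a gene. Each member peaks in positive array 2, and in positive array 1 BC147527, Tcstv3 and AF067061 stand 1.12, 0.45 and 0.48 above their highest negative array.

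Zscan4, the family tied to the Tcstv genes by work on telomeres, was measured by 3 probesets that each list Zscan4a, Zscan4b, Zscan4c, Zscan4d and Zscan4f. Probeset 10549964 was at 7.35, 8.35 and 9.55 in negative arrays 1, 2 and 3 and at 12.03, 13.55 and 10.82 in positive arrays 1, 2 and 3. The groups did not overlap, but the negative arrays spanned a wide range, highest in number 3. Its log2 differences were 4.68, 5.20 and 1.28 in pairs 1, 2 and 3, and those of the other two probesets were 4.65, 5.07 and 1.23 and 4.66, 4.86 and 1.21. Positive array 1 had 32.6% to 38.4% of the linear rise of positive array 2, against 2.38% to 5.70% in the members. The levels were unlike, 13.55 to 13.81 in positive array 2 for Zscan4 and 9.24 to 10.79 for the members. The part of level in these shares was not tested.

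The list of genes of the 2-cell-like state, which was taken partly from studies of this reporter and so is no independent evidence, held 48 symbols without the members. Those without a single-symbol probeset were not counted, among them Zscan4 genes that are on the array in probesets of several symbols. Of 22 with a single-symbol probeset, 22 were higher, 18 at least 2-fold and 20 without overlap. None of the 22 passed the test over all probesets (limma, 14 at an unadjusted p under 0.05). Over all probesets the shares were 1.14% at least 2-fold higher, 5.46% higher without overlap and 5.47% at an unadjusted p under 0.05. The median log2 difference was 2.66, with 1.85, 5.27 and 0.87 in pairs 1, 2 and 3, beside means of 0.72, 4.88 and 0.21 over the members. Positive array 2 was the highest of the 6 arrays for 21 of the 22.

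Among the 22 genes counted, the 5 largest log2 differences were those of Gm5662 (5.34), Tdpoz3 (4.80), Gm7982 (4.02), Usp17la (3.93) and the zinc finger gene Zfp352 (3.68). Their pair 1 differences ran from 3.06 to 5.35 and their pair 3 differences from 0.81 to 2.74, values that their choice by size makes large. Over the 22 genes, 13 were above the members' range of 0.48 to 1.12 in pair 1, 4 were within it and 5 below it. In pair 3, 9 of 22 were at or below 0.54, the highest of the members. In positive array 1 their linear rise was 5.47% of that in positive array 2 for Usp17la and 11.5% to 13.8% for the other 4. Naalad2, chosen after its values were seen, had a share of 1.69%, with log2 differences of 0.06, 3.15 and 0.16 in pairs 1, 2 and 3.

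The telomere list, mostly genes for telomerase, its assembly factors and proteins that cap or copy chromosome ends, with regulators such as Tbx3, Dot1l and Rnf20, was read because the Tcstv genes have been tied to telomere length. Of 35 symbols 34 were measured, 20 higher and 14 lower, with a median log2 difference of 0.01. None passed the test (limma, 0 of 34 adjusted, 1 at an unadjusted p under 0.05), 0 were at least 2-fold apart in either direction, and 4 were higher without overlap. Over all probesets 5.47% had an unadjusted p under 0.05, 1.14% were at least 2-fold higher, 0.0169% at least 2-fold lower and 5.46% higher without overlap. The largest differences were those of Tbx3, a transcription factor gene, at 0.36 (SE 0.36), Ten1, of the CST complex that copies telomere ends, at 0.35 (SE 0.15), and Terc, the RNA of telomerase, at 0.34 (SE 0.19). Terc was at 12.81, 12.51 and 12.82 in negative arrays 1, 2 and 3 and at 12.70, 13.32 and 13.14 in positive arrays 1, 2 and 3, so the groups overlapped. Tert, the catalytic subunit of telomerase, was chosen after its values were seen and differed by 0.14 (SE 0.19).

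All 10 ES cell markers were measured, with mean log2 levels of 12.27, 11.88 and 12.27 in positive arrays 1, 2 and 3 and of 12.34, 12.06 and 12.30 in negative arrays 1, 2 and 3. They were lowest in number 2 of both groups, positive array 2 being the one in which the members were highest. The means of 10 fibroblast markers were 7.17 to 8.02 in positive and 7.58 to 8.14 in negative arrays, those of 7 trophectoderm markers 8.41 to 9.55 and 8.58 to 9.37, and those of 6 primitive endoderm markers 7.43 to 7.95 and 7.93 to 8.10. Higher in positive arrays were 4 of 10 ES cell, 3 of 10 fibroblast, 4 of 7 trophectoderm and 1 of 6 primitive endoderm markers. None of these 33 genes passed the test (limma, 0 adjusted). At an unadjusted p under 0.05 there were 2, both fibroblast markers, against 5.47% of all probesets. The part of these cell types in the members' levels was not tested. Fibroblast and trophectoderm markers were highest in number 2 of both groups, at 8.02 and 9.55 in positive array 2 and at 8.14 and 9.37 in negative array 2. In negative array 2 the members stood at 4.96 to 5.04, at or near their lowest levels. That array was the lowest of the negative ones in 62.0% of the 3196 probesets of the members' negative range. These values do not test the part of such cells.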

How the data were processed

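Expression was measured on 1 Affymetrix whole-transcript array per sample, labelled from 100 ng of total RNA, per the labels' protocols. The values are log2 expression deposited by the authors, made by RMA in Affymetrix Expression Console per the submitters' processing notes, with versions and build not given in the sources used here. RMA corrects background, normalizes quantiles between arrays and summarises probes, which removes differences in total RNA and understates changes of dim probesets. Array medians over the 35556 probesets ranged from 6.95 to 7.04, and precision is limited by having 3 arrays a group.

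Symbols came from the platform annotation: 21789 probesets with 1 symbol, 1621 with several, and 12146 unnamed here. The 3 member probesets were matched to RefSeq (GRCm38.p6) by symbol. All probesets entered limma 3.58.1 in R 4.3.3 (two-sided, Benjamini-Hochberg, threshold 0.05), and lists were read from the brightest single-symbol probeset per gene. The code of the fit was run on simulated data with independent noise and shifts shared by all positive arrays. That noise was capped at the median spread, so the run says nothing of rises in 1 array such as the members'. Promoter windows and neighbour order are RefSeq's. Local alignments scored 1 for a match, -1 for a mismatch, -2 to open a gap and -1 to extend it.

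The members and lists were chosen with earlier results of these data known. Named genes were the members, neighbours at least 2-fold apart, the 5 two-cell-state and 3 telomere genes of largest difference, Zscan4 genes and the 5 nearest profiles per member. Deviations from the group means correlated across probesets between same-numbered arrays, with r = 0.41, 0.39 and 0.18 for numbers 1, 2 and 3. Same-numbered arrays thus shared some variation, least for number 3, which does not show what the number marks. The main fit had no block for the number, since the labels do not say what it marks. Alternatives were a replicate block, leaving out arrays, other normalizations, array weights, a dim filter, other thresholds and 1 probeset per gene.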

Additional observations from a re-analysis of the deposited data

How the results depend on the processing

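The mean log2 difference of the 3 member probesets was 1.94. Over the 14 alternatives run it lay between 0.47, with both arrays of number 2 left out, and 2.76, without positive array 3. The members were chosen on this difference, so its sign is no evidence. It stayed 1.94 with 1 probeset per gene, the dim filter or single-symbol members only, since these keep the members' probesets and values. Leaving out 1 array gave 0.62 to 2.76, array weights 0.96, median centring 1.93 and a second quantile normalization 1.92. Only the 2 other normalizations could have made the groups overlap in a member. With median centring all 3 stayed higher without overlap, and the second quantile normalization left 2, since Tcstv3 then overlapped. Leaving out arrays cannot create an overlap. The block, array weights, dim filter and 1 probeset per gene keep the members' array values, so nothing is read from those counts. The count of 3 members at least 2-fold higher was 1 to 3 when 1 array was left out (1 without positive array 2), 1 with array weights, 0 with both arrays of number 2 left out and 1 at a threshold of 4-fold. With the replicate block the mean difference was again 1.94, since each pair holds 1 array of each group, and 0 probesets passed. By size alone, 1 neighbour, 18 two-cell-state genes and 0 telomere genes were at least 2-fold apart, in place of 0 called in each list. Limma called 0 probesets in every alternative. The 405 probesets at least 2-fold higher became 102 genes with 1 probeset per gene. The 1946 at an unadjusted p under 0.05 became 3584 with the block, 878 with 1 probeset per gene, 5599 with array weights, 4602 without both arrays of number 2, and 1271, 3521 and 1290 when negative array 1, 2 or 3 was left out; where these have no reason in fewer probesets or arrays, the cause was not tested.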
